A study of Mus musculus with 6 samples.

Results

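The 46 genes described here were chosen by name for their role in the cell cycle, out of 34298 gene names on a mouse gene expression array, and all 46 were found on it. They comprised 14 replication genes, 21 mitosis genes, 3 general markers of proliferation (Mki67, Top2a and Stmn1), 3 cyclins of S phase (Ccne1, Ccne2 and Ccna2), 2 G1 cyclins (Ccnd1 and Ccnd2) and 3 CDK inhibitors (Cdkn1a, Cdkn2a and Cdkn2b). Total RNA was hybridized to 6 single-color arrays, 3 of esophagus and 3 of stomach epithelial 3D organoids at passage 0, one of each tissue from mice 1, 2 and 4. All 6 arrays are labelled as controls, and no treated arrays were compared here. The study's methods list wild-type C57BL/6 females among the mice without saying which animals gave the arrays. Organoids were harvested on day 8, except those of stomach replicate 4, which were harvested on day 7. Stomach cultures received WNT3A- and R-spondin1-conditioned media and gastrin, esophagus cultures received forskolin and none of these, and both received EGF, noggin and FGF-10, so that tissue and medium cannot be told apart. Values are the authors' log2 values, background corrected and quantile normalized, of the brightest probe of each gene, and they compare arrays for 1 probe, not probes with each other.

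Cells that divide copy their DNA in S phase and separate the copies in mitosis, and each step draws on its own set of proteins. The minichromosome maintenance (MCM) proteins open the double helix after Cdc6 and Cdt1 have loaded them, and ribonucleotide reductase and thymidylate synthase supply the building blocks of DNA. Cyclin B with Cdk1, the Polo and Aurora kinases, the spindle checkpoint and the kinesin motors then carry the cell through mitosis, after which much of this machinery is degraded. D cyclins drive G1, the phase before replication, and the inhibitors p21, p16 and p15 hold it back. In stratified squamous epithelium, such as that of the esophagus, division is restricted to the basal and parabasal layers, and cells that leave them stop dividing and differentiate. In gastric glands it takes place mainly in the isthmus.

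The labels fitted the markers of the tissues. All 7 squamous markers were higher in the esophagus arrays and all 8 columnar markers were higher in the stomach arrays. Of the markers of other cell types, none of 6 fibroblast and none of 3 smooth muscle markers were well above background on all 6 arrays, although Acta2 read 6.69 on esophagus replicate 2 against 4.93 and 4.97 on the other esophagus arrays. Of the others, 4 of 5 immune markers (Ptprc among them) and the endothelial marker Cdh5 were well above background on no array. Cd3e (7.23 to 8.34), Pecam1 (5.80 to 6.37) and Kdr (8.44 to 9.12) were well above background on all 6, in both tissues. Between 45.5% and 51.1% of the spots of an array were well above background. Several arrays stood apart. Stomach replicate 4, the day 7 array, correlated with the other stomach arrays at 0.987 and 0.986 across probes, against 0.9945 between those. The esophagus arrays correlated less with each other, at 0.9849 (replicates 1 and 2), 0.9827 (2 and 4) and 0.9785 (1 and 4). Among the esophagus arrays, replicate 2 was the highest for 7 of 7 immediate-early genes (Fosb was 7.06, 15.66 and 6.90 in replicates 1, 2 and 4, and Atf3 was 7.64, 14.86 and 5.21). Replicate 4, the only array on the second slide, was the lowest for the late squamous differentiation genes as a group, and replicate 1 was the highest for 9 of 13 of them. Of the 46 genes, 43 were well above background on all 6 arrays. The exceptions were Cenpf, on 4 arrays, Aurkb, on 2, and Ccne2, on 1. They were kept in the counts below, also in those set beside gene names well above background on all 6 arrays. Expression in bulk RNA cannot tell fewer dividing cells apart from less RNA per cell.

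The first comparison asked whether the cell cycle genes differed between the squamous and the columnar organoids. They largely did not pass. By limma with Benjamini-Hochberg adjustment over all probes, 1 of the 46 genes had an adjusted p under 0.05, higher in stomach, and 0 were higher in esophagus, while 14.9% of all gene names passed, those higher in esophagus making up 7.15% and those higher in stomach 7.70% of all gene names. Among gene names well above background on all 6 arrays the share was 21.7%. At an unadjusted p under 0.05, 4 of the 46 were higher in esophagus (Pcna, Mcm2, Mcm4 and Ccne1) and 2 in stomach (Ccnd2 and Cdkn2a), against 27.5% of all gene names in either direction. The 2 groups of 3 arrays did not overlap for 6 of the 46, against 41.5% of the gene names well above background throughout. The smallest p that an exact permutation of 3 arrays against 3 allows is 0.1.

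The median difference, esophagus minus stomach on the log2 scale, was 0.24 over the 46 genes, 0.36 over the mitosis genes and 0.24 over the replication genes, beside 0.03 over all gene names and 0.09 over those well above background on all 6 arrays. Under scaling of the processed signal to the 75th percentile they were 0.55 for the mitosis and 0.52 for the replication genes, with a median of 0.19 over all probes. These medians also depended on single arrays. Without esophagus replicate 4 the mitosis median was -0.10 and the replication median 0.01, and without esophagus replicate 1 they were 0.82 and 0.40. The intervals of single genes were wide. The 95% interval of the difference lay within a 2-fold change in both directions for 12 of the 46 genes, among them 7 of 14 replication genes but only 3 of 21 mitosis genes, so that a p above the threshold does not show that the tissues had the same level. The SD between replicates was larger in esophagus than in stomach for 43 of the 46 genes, with a median of 0.77 against 0.29, beside 0.29 against 0.24 over the gene names well above background on all 6 arrays.

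**Figure D1:**
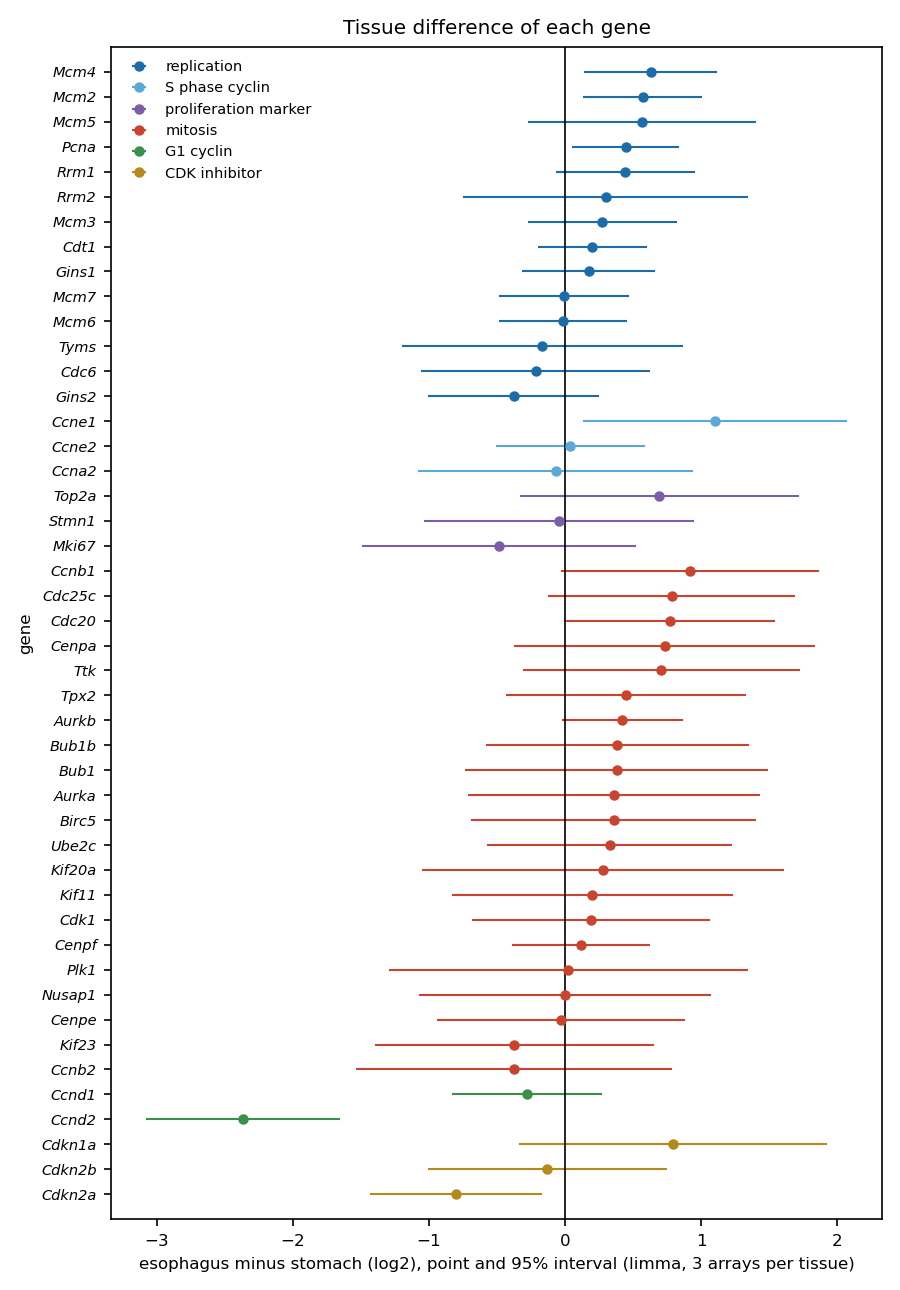
Each point is the esophagus minus stomach difference of 1 gene (log2, x axis) and each bar its 95% interval from limma with 3 arrays per tissue, with genes colored and ordered by role. Ccnd2, at -2.36, is the gene whose adjusted p passed, and the intervals of the mitosis genes are about as wide as 1 log2 unit on each side (median 1.02).

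Ccnd2 encodes cyclin D2, a partner of Cdk4 and Cdk6 in G1, and was the gene that passed. Its probe lies at chr6:127098696-127098755 on the minus strand (mm9). It read 14.79, 14.70 and 14.86 in stomach replicates 1, 2 and 4 and 13.03, 11.72 and 12.51 in the esophagus replicates of the same mice. Every stomach array was above every esophagus array, and the stomach arrays lay within 0.16 of each other. The difference was -2.36 ± 0.31 (SE, n = 3 per tissue; limma, adjusted p = 0.00185), a 5.15-fold higher level in stomach. It kept its call under each alternative tried, between -2.67 and -2.01.

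Cyclin D1, the other D cyclin of the list, showed no such difference. Ccnd1 read 15.64, 15.57 and 16.06 in stomach and 15.90, 15.12 and 15.41 in esophagus (difference -0.28, 95% interval -0.83 to 0.27). The tissues overlapped.

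The CDK inhibitors differed from each other in direction and none passed. Cdkn1a, which encodes p21, the inhibitor induced by p53 and by cell cycle exit, read 11.59, 11.60 and 12.48 in stomach and 13.49, 13.001 and 11.56 in esophagus. Esophagus replicate 4 lay just below all stomach arrays while replicates 1 and 2 lay above them (difference 0.79 ± 0.49, limma adjusted p = 0.398). Without replicate 4, which also removes the second slide, the difference was 1.35 and its limma adjusted p was 0.0374. A dimmer Cdkn1a probe, well above background on all 6 arrays, did not repeat this order. It read 6.23, 6.39 and 6.22 in stomach and 8.12, 5.78 and 6.43 in esophagus. Another probe, well above background on 3 arrays, did repeat it, with 5.30, 5.12 and 5.58 against 5.80, 5.60 and 4.71. Cdkn2a, the locus of p16 and p19Arf, was dim, with 7.57, 7.94 and 8.11 in stomach and 7.57, 7.09 and 6.57 in esophagus. Its tissues did not overlap, although replicate 1 of both tissues was 7.57 after rounding (difference -0.80 ± 0.27, limma adjusted p = 0.113). Cdkn2b, which encodes p15, read 11.54, 11.35 and 11.75 in stomach and 12.37, 10.997 and 10.89 in esophagus, and its tissues overlapped.

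**Figure D2:**
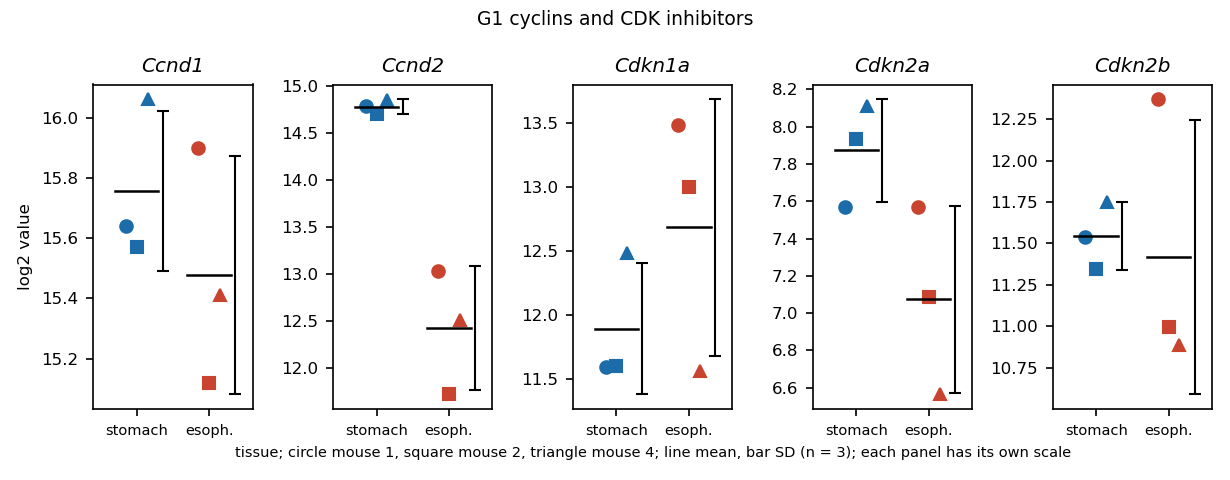
Log2 values of the 2 G1 cyclins and the 3 CDK inhibitors on each array, with the mean (line) and SD (bar, n = 3) of each tissue. In esophagus the circle, mouse 1, is the highest point in every panel, in stomach the triangle, mouse 4, and Ccnd2 is the gene whose tissues lie far apart.

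Among the cyclins of S phase, Ccne1, the activator of Cdk2 at the start of replication, read 10.39, 10.58 and 11.61 in stomach and 11.16, 12.41 and 12.30 in esophagus. Stomach replicate 4 lay above esophagus replicate 1, so the tissues overlapped, and the difference of 1.10 ± 0.42 did not pass (limma adjusted p = 0.154). It passed without stomach replicate 4 (1.47, adjusted p = 0.0488) and without esophagus replicate 1 (1.498, adjusted p = 0.0394). Ccna2, cyclin A2, which serves S phase and mitotic entry, read 11.79, 11.85 and 12.69 in stomach and 11.16, 12.09 and 12.87 in esophagus, a difference of -0.07. Ccne2 was well above background on 1 array and gave no usable comparison.

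Of the replication genes, 9 of 14 lay slightly higher in esophagus, and none passed. A positive difference was also found for 8803 of 15649 gene names well above background on all 6 arrays, a similar share. Mcm2 and Mcm4 belong to the ring-shaped MCM helicase. Mcm4 read 12.33, 12.25 and 12.74 in stomach and 12.84, 12.96 and 13.41 in esophagus (difference 0.63 ± 0.21, limma adjusted p = 0.108). Mcm2 read 11.48, 11.64 and 11.87 in stomach and 12.01, 12.17 and 12.52 in esophagus (0.57 ± 0.19, adjusted p = 0.102 by limma). For both, every esophagus array was above every stomach array. Pcna, the sliding clamp of the DNA polymerases, did not overlap either, at 13.36, 13.23 and 13.16 in stomach and 13.44, 13.91 and 13.74 in esophagus (0.45 ± 0.17, limma adjusted p = 0.152). The other MCM subunits varied. Mcm6 and Mcm7 differed by -0.02 and -0.01, with intervals of -0.49 to 0.45 and -0.48 to 0.47, and Mcm3 and Mcm5 by 0.27 and 0.56. Mcm5 read 11.61, 11.91 and 12.71 in stomach and 12.06, 12.66 and 13.20 in esophagus, and Rrm1, the large subunit of ribonucleotide reductase, read 11.45, 11.46 and 11.65 in stomach and 11.85, 11.62 and 12.42 in esophagus. Gins2, a subunit of the GINS complex that travels with the helicase, had the largest difference toward stomach, -0.38, with 8.86, 9.08 and 8.45 there and 8.17, 8.13 and 8.96 in esophagus.

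The mitosis genes had larger differences with larger errors, and none of the 21 passed. Ccnb1, cyclin B1, the partner of Cdk1 at mitotic entry, read 10.90, 11.09 and 11.88 in stomach and 11.41, 12.27 and 12.95 in esophagus. Across mice the tissues overlapped. The difference was 0.92 ± 0.41 (limma adjusted p = 0.226), and with the mouse as a replicate block it was 0.92 ± 0.20 (adjusted p = 0.0384). Cdc20, the activator of the anaphase-promoting complex, read 13.11, 13.24 and 13.77 in stomach and 13.43, 14.31 and 14.69 in esophagus (0.77 ± 0.33, limma adjusted p = 0.213). Cdc25c, the phosphatase that activates Cdk1, read 6.39, 6.70 and 6.86 against 6.57, 7.47 and 8.27. For each of these genes esophagus replicate 1 lay among the stomach values, while within each mouse the esophagus array was the higher one. Within all 3 mice esophagus was the higher for 13 of the 46 genes (7 mitosis genes, 5 replication genes and Ccne1), against 33.2% of the gene names well above background on all 6 arrays, and stomach for 2. Cenpa, the histone variant of the centromere, read 10.97, 11.25 and 11.43 in stomach and 10.83, 12.03 and 12.98 in esophagus. Ttk, the checkpoint kinase Mps1, read 5.69, 5.90 and 6.30 against 5.72, 6.66 and 7.63, and Tpx2, which targets Aurora A to the spindle, read 9.46, 9.67 and 10.29 against 9.50, 10.27 and 10.98. For Cenpa, Ttk and Tpx2 as well, esophagus replicate 1 lay within or below the range of the stomach arrays and replicate 4 above it. Without esophagus replicate 1, 5 genes passed as higher in esophagus (Top2a 1.22, Ccne1 1.498, Cdc20 1.12, Cdc25c 1.22 and Cenpa 1.29, limma adjusted p from 0.0274 to 0.0394), and Cdkn2a passed as higher in stomach beside Ccnd2. These 7 of 46 compare with 4806 of 34298 gene names that passed in that fit, a similar share.

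The general markers of proliferation gave no common direction between the tissues. Mki67, the nuclear antigen Ki-67 present in all phases but rest, read 13.35, 13.59 and 13.72 in stomach and 11.95, 13.48 and 13.77 in esophagus (difference -0.49, 95% interval -1.49 to 0.52). Top2a, the topoisomerase that untangles chromosomes, read 10.47, 10.56 and 10.62 in stomach and 10.19, 11.34 and 12.20 in esophagus (0.69, interval -0.33 to 1.72). Stmn1, the microtubule regulator stathmin, read 14.09, 13.76 and 13.33 in stomach and 12.68, 13.97 and 14.40 in esophagus (-0.04, interval -1.03 to 0.94). For each of them esophagus replicate 1 was the lowest of the 6 arrays, and the SD between replicates was larger in esophagus than in stomach (0.98 against 0.19 for Mki67, 1.01 against 0.08 for Top2a and 0.89 against 0.38 for Stmn1).

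**Figure D3:**
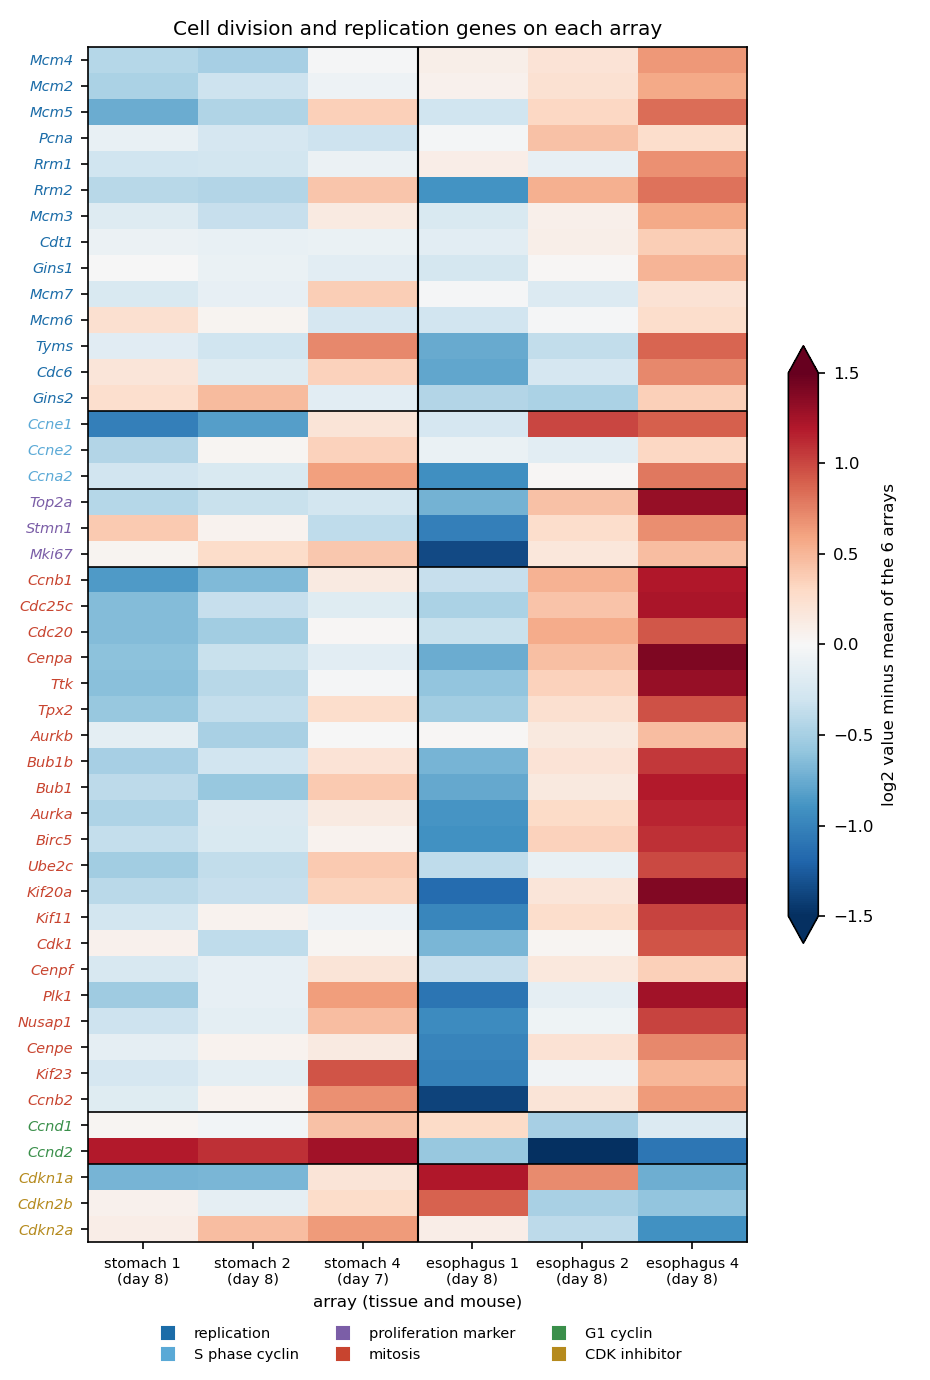
Each row is 1 gene, grouped by role (color of its name), each column 1 array, and the color is the log2 value minus the gene's mean over the 6 arrays, with values beyond 1.5 shown in the end colors. Esophagus replicate 1 is the lowest and replicate 4 the highest of the esophagus arrays across the mitosis genes, and the 5 G1 cyclins and CDK inhibitors of the list have replicate 1 as their highest esophagus array.

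The larger pattern was within the esophagus, between cultures of different mice harvested on the same day. Replicate 4 was the highest and replicate 1 the lowest esophagus array for 21 of 21 mitosis genes, 10 of 14 replication genes, 3 of 3 proliferation markers and 1 of 3 S phase cyclins. These 35 of 41 genes compare with 24.9% of the gene names well above background on all 6 arrays. The pattern was noticed in the values, each replicate is 1 array, and no test was made of it. Replicate 4 minus replicate 1 had a median of 1.75 over the mitosis genes (from 0.45 for Aurkb, a dim probe, to 2.54 for Kif20a) and of 0.67 over the replication genes (from 0.24 for Mcm7 to 1.71 for Rrm2), beside 0.07 over the gene names well above background on all 6 arrays. All 55 probes of these 41 genes, including the 25 probes of the 11 genes with several, were higher in replicate 4 than in replicate 1. Replicate 2 lay between them for most genes, 0.92 above replicate 1 at the median of the mitosis genes and 0.80 below replicate 4.

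Some mitosis genes with a wide spread are named here, after their values were seen. Kif20a, a kinesin of the central spindle, read 8.35, 9.68 and 10.89 in replicates 1, 2 and 4. Plk1, the Polo kinase that acts at mitotic entry and in cytokinesis, read 12.04, 13.01 and 14.40. Cenpa differed by 2.14, Aurka, the Aurora kinase of the spindle poles, by 2.03, Ccnb2 by 2.02 and Birc5, survivin, by 2.004. Mki67, Top2a and Stmn1 differed by 1.82, 2.01 and 1.72, as much as the mitosis genes. The replication genes fell into a wide and a narrow part. The nucleotide supply genes Rrm2 and Tyms and the loading factor Cdc6 differed by 1.71, 1.63 and 1.498, and Mcm5 by 1.14, whereas the other 10 lay between 0.24 and 0.80, among them Pcna at 0.30, Mcm2 at 0.51, Cdt1 at 0.53, Mcm6 at 0.55, Mcm4 at 0.57 and Rrm1 at 0.58.

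**Figure D4:**
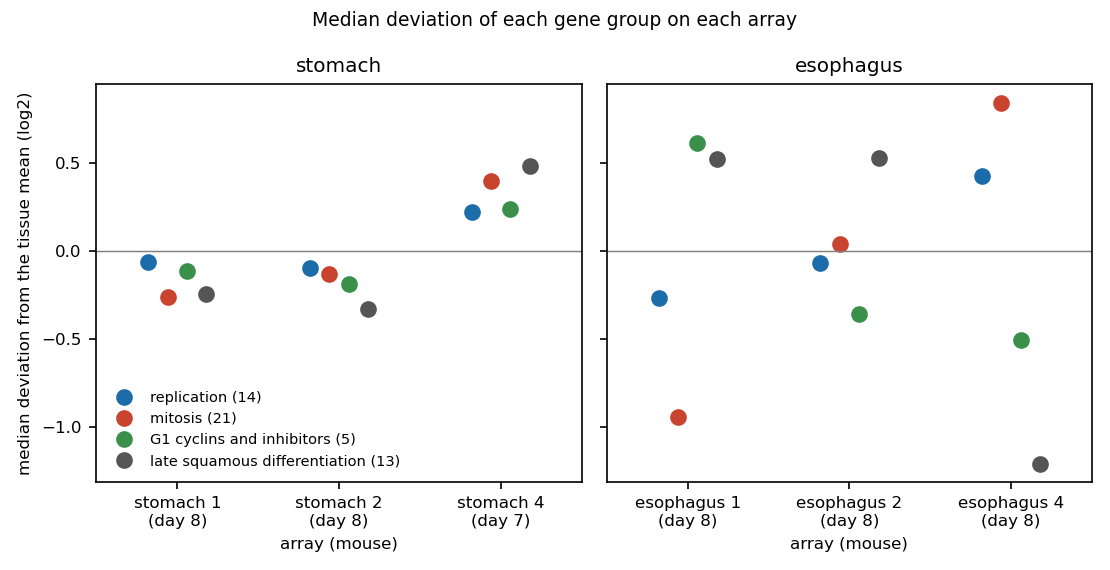
Points are the median deviation of a gene group from its tissue mean on each array (log2), for the replication genes, the mitosis genes, the G1 cyclins with the CDK inhibitors, and 13 late squamous differentiation genes. In esophagus the mitosis genes go from -0.95 to 0.84 between replicates 1 and 4 while late differentiation genes are at 0.52 and -1.21, and in stomach all 4 groups are highest on the day 7 array.

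The 5 G1 cyclins and CDK inhibitors of the list (Ccnd1, Ccnd2, Cdkn1a, Cdkn2a and Cdkn2b) differed in the other direction between replicates 1 and 4 of esophagus. Replicate 1 was the highest esophagus array for 5 of 5 of them, against 33.5% of the gene names well above background on all 6 arrays, and replicate 4 minus replicate 1 was -1.93 for Cdkn1a, -1.48 for Cdkn2b, -1.005 for Cdkn2a, -0.52 for Ccnd2 and -0.49 for Ccnd1. This did not hold for these classes as a whole. Of the other D cyclin and CDK inhibitors among the further G1 regulators, named after their values were seen, Ccnd3, Cdkn2c and Cdkn2d differed by 0.94, 1.31 and 1.48, Cdkn1b by 0.03 and Cdkn1c by -2.43. The late squamous differentiation genes stood in a like order at the ends, with median deviations of 0.52, 0.53 and -1.21 in replicates 1, 2 and 4. Loricrin (Lor) read 14.44, 16.94 and 10.38, Sprr3, a small proline-rich envelope protein, 15.62, 15.19 and 11.62, and Cnfn, cornifelin, 17.73, 17.44 and 13.83. Replicate 4 was the lowest esophagus array for 10 of the 13, these included, and not for Flg, Ivl and Tgm3. The part of differentiation, of the second slide or of the mouse in the spread of the cell cycle genes was not tested. Replicate 2 minus replicate 1, both on the first slide, was 0.92 at the median of the mitosis genes, 0.27 at that of the replication genes and -0.26 at that of the late differentiation genes.

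The promoters of the mitosis and replication genes were compared next. Promoter windows from RefSeq (GRCm38.p6, 250 bases before to 50 after the start) were at hand for 34 of the 46 genes, and the first window of a gene was used. They were searched on both strands for the cell cycle homology region or CHR (TTTGAA or TTCGAA), the CCAAT box (CCAAT) and a strict E2F motif (TTTCCCGC, TTTGGCGC, TTTCGCGC or TTTGCCGC). As background, the CHR and CCAAT boxes are known from promoters switched on in G2 and mitosis, bound by the MuvB complex and by NF-Y, and E2F sites from genes switched on at the start of S phase. The CHR letters were in 13 of 17 mitosis windows (76.5%), in 2 of 11 replication windows (18.2%) and in 19.4% of the windows of all 27025 genes. CCAAT was in 15 of 17 and 8 of 11, against 37.9% of all. The E2F letters were in 1 of 17 mitosis windows, in 6 of 11 replication windows (54.5%) and in 2.32% of all. Matches of different motifs overlapped in 1 of the 34 windows. Both Mki67 and Top2a had CHR and CCAAT letters. A match describes letters and is not a measured binding site.

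The windows of 3 mitosis genes, Cdc20, Plk1 and Cenpa, and of 3 MCM genes, Mcm3, Mcm5 and Mcm6, show these arrangements. They are printed 5′ to 3′ in the direction of the gene, with the matches to the 3 motifs, on either strand, in capitals. Cdc20 is at chr4:118437294-118437593 (minus strand), with the CHR letters between 2 CCAAT boxes. Plk1 is at chr7:122159185-122159484 (plus strand), with a CCAAT box before the start and CHR letters after it. Cenpa is at chr5:30666636-30666935 (plus strand), with 2 inverted CCAAT boxes ahead of the CHR letters.
Cdc20: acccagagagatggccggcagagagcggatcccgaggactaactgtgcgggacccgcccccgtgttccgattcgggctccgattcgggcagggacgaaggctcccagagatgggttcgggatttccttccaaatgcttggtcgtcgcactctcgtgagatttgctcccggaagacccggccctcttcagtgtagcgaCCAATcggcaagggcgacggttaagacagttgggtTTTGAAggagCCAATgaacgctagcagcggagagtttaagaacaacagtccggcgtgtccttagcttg
Plk1: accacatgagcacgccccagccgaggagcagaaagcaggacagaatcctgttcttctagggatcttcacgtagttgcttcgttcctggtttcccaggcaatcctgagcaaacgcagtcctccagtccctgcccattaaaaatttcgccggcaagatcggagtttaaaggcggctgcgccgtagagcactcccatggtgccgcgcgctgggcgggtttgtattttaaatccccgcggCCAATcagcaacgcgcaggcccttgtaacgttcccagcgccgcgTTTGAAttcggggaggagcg
Cenpa: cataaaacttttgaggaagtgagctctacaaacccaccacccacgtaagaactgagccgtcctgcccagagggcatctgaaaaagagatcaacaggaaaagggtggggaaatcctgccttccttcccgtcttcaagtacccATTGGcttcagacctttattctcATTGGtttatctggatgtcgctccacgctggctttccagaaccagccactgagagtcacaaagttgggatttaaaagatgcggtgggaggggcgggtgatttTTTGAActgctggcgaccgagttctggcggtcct

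Mcm3 is at chr1:20820263-20820562 (minus strand), with 3 CCAAT boxes and then 2 E2F matches. Mcm5 is at chr8:75109259-75109558 (plus strand), where 2 overlapping E2F matches stand ahead of 3 CCAAT boxes. Mcm6 is at chr1:128359656-128359955 (minus strand), with 3 E2F matches, of which 2 overlap, and 2 inverted CCAAT boxes. None of these windows has CHR letters.
Mcm3: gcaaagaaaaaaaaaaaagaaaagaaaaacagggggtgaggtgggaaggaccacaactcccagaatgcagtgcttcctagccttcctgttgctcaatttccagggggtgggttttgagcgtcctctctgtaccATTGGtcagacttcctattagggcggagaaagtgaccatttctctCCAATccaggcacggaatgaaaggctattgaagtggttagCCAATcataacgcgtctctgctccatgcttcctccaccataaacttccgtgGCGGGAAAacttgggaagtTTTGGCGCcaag
Mcm5: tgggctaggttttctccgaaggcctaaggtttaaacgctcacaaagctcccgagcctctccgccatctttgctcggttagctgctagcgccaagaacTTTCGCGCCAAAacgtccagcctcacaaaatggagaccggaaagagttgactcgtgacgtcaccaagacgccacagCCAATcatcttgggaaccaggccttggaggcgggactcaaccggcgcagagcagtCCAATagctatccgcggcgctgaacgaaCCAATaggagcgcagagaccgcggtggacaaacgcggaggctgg
Mcm6: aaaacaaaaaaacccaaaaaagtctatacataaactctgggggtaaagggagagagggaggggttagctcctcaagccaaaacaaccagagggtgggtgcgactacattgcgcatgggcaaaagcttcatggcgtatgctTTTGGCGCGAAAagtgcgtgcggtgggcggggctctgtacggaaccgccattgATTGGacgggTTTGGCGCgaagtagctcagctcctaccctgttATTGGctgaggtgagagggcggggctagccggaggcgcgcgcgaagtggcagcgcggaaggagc

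Beside these windows, the replicate 4 minus replicate 1 difference in esophagus was 1.26 for Cdc20, 2.36 for Plk1 and 2.14 for Cenpa, and 0.80 for Mcm3, 1.14 for Mcm5 and 0.55 for Mcm6. These windows were chosen to show the motifs, and are not typical in every case. Over the 13 mitosis windows with CHR letters the median of this difference was 1.91, and over the 4 without them 1.83. Over the 2 replication windows with CHR letters it was 0.37, and over the 9 without them 0.80. Mcm2 and Mcm7 have CHR letters and differed by 0.51 and 0.24, whereas Ccnb1, Cenpe, Birc5 and Nusap1 have none and differed by 1.54, 1.71, 2.004 and 1.96.

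The second comparison was of harvest day in stomach, where replicate 4 was harvested on day 7 and replicates 1 and 2 on day 8. With 1 array on day 7, day and mouse cannot be told apart. The day 7 array was the highest stomach array for 19 of 21 mitosis genes, 9 of 14 replication genes, 3 of 3 S phase cyclins and 38 of the 46 genes in all, against 45.7% of the gene names well above background on all 6 arrays. These counts include dim genes. In stomach Aurkb was well above background on no array, Ccne2 on 1 and Cenpf on 2. None of the 46 passed in limma, with the esophagus arrays sharing the estimate of spread. The smallest adjusted p was 0.597, and 0.0379% of all gene names, 13 of 34291, passed. At an unadjusted p under 0.05 it was 0 of the 46 and 10.4% of all gene names. With 1 array on day 7, and with the spread estimated largely from the esophagus arrays, whose SD was the larger for 43 of the 46, the lack of calls says little about day. Day 7 minus day 8 had a median of 0.59 over the mitosis genes and of 0.33 over the replication genes, beside 0.05 over the gene names well above background on all 6 arrays. Markers of both epithelia were looked at on this array as well. Day 7 minus day 8 was above 0 for 7 of 7 squamous markers (0.07 to 1.52), though these stayed far below their esophagus levels. Col17a1, Krt6a and Sprr3 were well above background on no stomach array and Krt5 on 1, so that their signs say little. It was above 0 for 11 of 13 late squamous differentiation genes, up to 3.42 for Cnfn and 2.496 for Sprr1a. Krt13, Sprr3 and Tgm1 stand in both lists. Of the gene names well above background on all 6 arrays, 8431 of 15649 were above 0. Among the columnar markers Muc6 differed by 1.93 and Pgc by 1.11, and 4 of 8 were above 0. None of these markers passed, and their part in the day difference of the cell cycle genes was not tested.

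The largest day differences were those of Kif23, a kinesin of cytokinesis, at 1.14 ± 0.55 (SE), and of Ccne1, at 1.12 ± 0.51. Kif23 read 10.33 and 10.44 on day 8 and 11.53 on day 7. Dimmer probes of both genes were again highest on day 7, by less. That of Kif23, well above background on 4 arrays, read 6.02 and 5.93 on day 8 and 6.16 on day 7. That of Ccne1, well above background on all 6, read 6.42 and 6.12 on day 8 and 6.71 on day 7. Tyms differed by 0.96, Plk1 and Mcm5 by 0.95 each, and Cdkn1a by 0.89. Of the replication genes, Gins2, Mcm6, Pcna, Gins1 and Cdt1 had differences below 0, of -0.52, -0.39, -0.14, -0.10 and -0.01. Their SEs were 0.26 to 0.38, so that the last 3 lay within 1 SE of 0. Stmn1 had the lowest difference of the 46, -0.60.

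**Figure D5:**
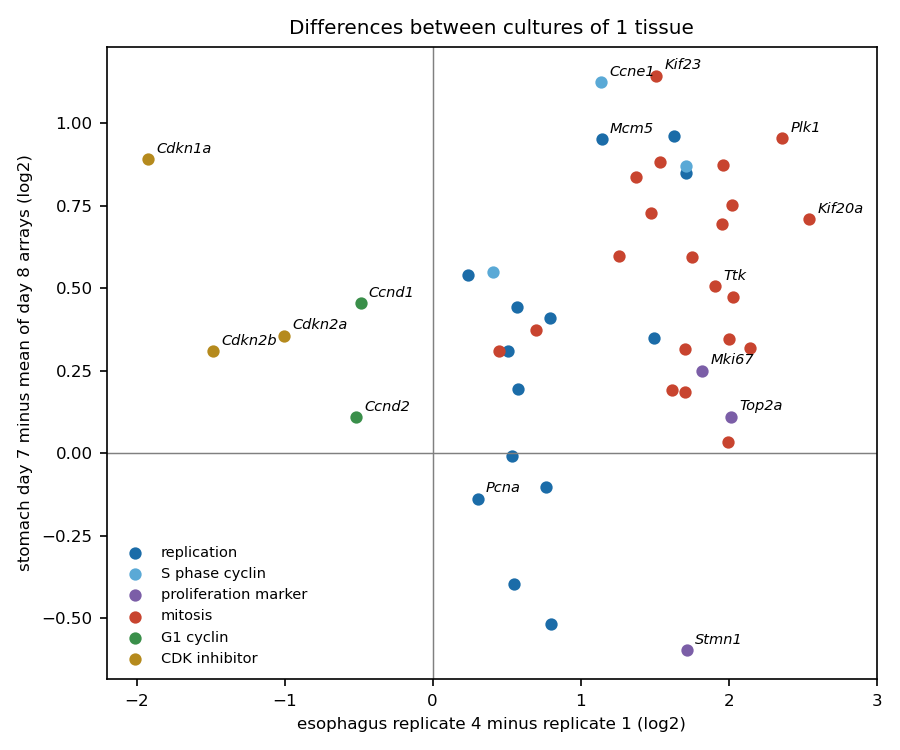
Each point is 1 gene, with esophagus replicate 4 minus replicate 1 on the x axis and stomach day 7 minus the mean of the day 8 arrays on the y axis (both log2), colored by role. All 21 mitosis genes lie right of and above 0, and the 5 G1 cyclins and CDK inhibitors lie left of and above 0.

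Replicate 4 comes from mouse 4 in both tissues. It was the highest array of both tissues for 19 of 21 mitosis genes and 32 of the 41 genes without the G1 cyclins and inhibitors, against 20.2% of the gene names well above background on all 6 arrays. The 5 G1 cyclins and CDK inhibitors of the list did not share this, whereas 11 of 25 further G1 regulators did, Ccnd3 and Cdkn2c among them. In stomach replicate 4 was the highest array for 5 of the 5 listed genes, and in esophagus for 0 of 5. Harvest day differed between the stomach arrays and not between the esophagus arrays, and the part of mouse 4 in these orders was not tested.

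Other genes of the same pathways, were taken from lists made by function. Of 40 further replication genes, 4 were higher in esophagus and 1 in stomach by limma at an adjusted p under 0.05, against 14.9% of all gene names and 21.7% of those well above background on all 6 arrays, so that the count is no more than the share among all genes. Orc2, a subunit of the origin recognition complex, differed by 1.42, Tipin, a partner of Timeless at the replication fork, by 1.16, Pole2, a subunit of polymerase epsilon, by 1.05, and Rfc1, of the clamp loader, by 0.66, while Pold3, a subunit of polymerase delta, was lower in esophagus by -1.33. Their median tissue difference was 0.39 and their median replicate 4 minus replicate 1 difference in esophagus was 0.83. Of 38 further mitosis genes on the array, 0 passed, and 6 had an unadjusted p under 0.05, against 27.5% of all gene names. Replicate 4 was the highest and replicate 1 the lowest esophagus array for 36 of these 38, with a median difference of 1.59, and for 27 of the 40 further replication genes.

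Of 25 further G1 regulators, 5 were higher in esophagus and 0 in stomach, all 25 being well above background on all 6 arrays, where 21.7% of gene names passed in either direction. The count is close to that share. The list and its 5 calls include Wee1, which acts on Cdk1, the kinase of mitotic entry, rather than in G1. Replicate 4 was the highest esophagus array for 17 of the 25, against 6589 of 15649 gene names well above background on all 6 arrays, and the highest with replicate 1 the lowest for 13, against 24.9% of such names, with a median replicate 4 minus replicate 1 difference of 0.59. Rbl1, the pocket protein p107, differed by 1.56, E2f7, a repressor of the E2F family, by 1.41, Trp53, which encodes p53, by 1.14, Wee1, the kinase that restrains Cdk1, by 0.73, and Cdk6, a partner of the D cyclins, by 0.64. Wee1 read 9.91, 9.68 and 9.35 in stomach and 10.52, 10.21 and 10.41 in esophagus, and Cdk6 read 7.04, 6.77 and 6.95 in stomach and 7.66, 7.54 and 7.47 in esophagus. For both, the tissues did not overlap and the esophagus replicates lay close together, unlike those of the mitosis genes.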

How the data were processed

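RNA of 6 organoid cultures was labeled with Cy3 and hybridized to single-color arrays, which the authors scanned and read with Agilent Feature Extraction, version 11.5.1.1. Raw intensity values per spot are in the deposited scanner output, and the authors' deposited table holds log2 values that they background corrected and quantile normalized. That table gave the main values, since each of its columns matched its own array best (Spearman 0.991 to 0.995). Its empty cells, 227 to 432 per array, were outlier-marked spots. No fold change or p-value of the authors was used.

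Spots of a probe were averaged, and the brightest of a gene's probes, by the mean over the 6 arrays, stood for it (64 probes for the 46 genes). Limma (version 3.58.1, R 4.3.3) compared esophagus with stomach on all 6 arrays with no block, and p-values were adjusted over 55681 probes by Benjamini-Hochberg. Day 7 was compared with day 8 in a fit of 3 groups. Scripts were tested on simulated data. Replicate numbers pair arrays of 1 mouse. Deviations from the tissue means correlated with r from -0.01 to 0.02 within a mouse and from -0.07 to 0.04 between mice.

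All 46 genes may be named. Per-array values are given for those that passed, for up to 6 per role with the largest tissue difference, and for Mki67, Top2a, Pcna and Stmn1. Others, such as Kif20a, Plk1 and Kif23, were chosen after their values were seen. The members and lists were chosen with earlier results of these data known. Alternatives covered the background correction (normexp offsets of 16 and 50), the normalization, dim probes, the probe per gene, the variance prior, blocks for mouse and slide, the methods' threshold and leaving out each array. Probe positions are in mm9. Sgol1 and Sgol2 of the mitosis list were not matched. Nothing in the labels says how the cultures of 1 tissue were separated beyond the mouse, so the spread covers mouse and culture together. For arrays, their number limits the precision.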

Additional observations from a re-analysis of the deposited data

How the results depend on the processing

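Ccnd2 passed under each alternative. The count higher in stomach was 1, and 2 at an unadjusted p under 0.05 with a 1.5-fold change, where Cdkn2a joined it. Leaving out each array in turn gave 1 to 2. The count higher in esophagus was 0, and it was 1 with the mouse as a replicate block (Ccnb1), 1 with the slide as a block (Cdkn1a, the same fit as without esophagus replicate 4), 2 at the unadjusted threshold (Mcm4 and Ccne1), and 0 to 5 when each array was left out, with the highest count without esophagus replicate 1. The replicate block, which pairs the arrays of a mouse, changed no other call. Of all gene names, in either direction, 14.9% passed in the main fit, 13.6% with the mouse block and 13.8% with the slide block. At the unadjusted threshold with a 1.5-fold change 21.7% did, and with 1 array left out 9.16% to 16.3%. The counts of the members are to be read beside these shares. The day counts were 0 under each alternative run for them, which left out the mouse block and the omission of stomach replicate 4, the only day 7 array. The median tissue difference of the mitosis genes, 0.36, ranged from -0.10 (without esophagus replicate 4) to 0.82 (without esophagus replicate 1) when each array was left out, and that of the replication genes, 0.24, from 0.01 to 0.40 with the same arrays. Of the single-gene values under alternatives, 63 changed sign while not passing and 0 changed sign with a call. Scaling the processed signal to the 75th percentile raised the median tissue difference of all probes from 0.02 to 0.19, that of the mitosis genes to 0.55 and that of the replication genes to 0.52, and the replicate 4 minus replicate 1 median of the mitosis genes in esophagus to 2.17. Leaving 1 array out leaves 2 in that tissue, and signal over background limits Ccne2, Aurkb and Cenpf.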
